A study of Mus musculus with 9 samples.

Results

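Fatty acid oxidation was followed through 41 genes of the mitochondrial and peroxisomal pathways in sorted mouse kidney cells. The members were taken by symbol from the deposited table of 55385 genes, and every one of the 41 symbols occurred there once. All 41 passed the filter on low counts, which 15519 genes passed in all. By the usual location of the enzymes, 20 were classed as mitochondrial, 15 as peroxisomal and 6 as working in both compartments. The 9 libraries came from male mice of 9 to 12 weeks and 25 to 30 g, with 3 biological replicates in each of 3 groups. The p-values set differences against the spread between replicates, estimated over all 9 libraries together. The 48 h libraries therefore also enter the tests of d14 against uninjured cells. Uninjured cells came from Slc34a1IRES-CreERT2/+:R26RtdT/+ mice given tamoxifen, in which the red protein tdTomato marks cells that use Slc34a1, the phosphate transporter gene of the proximal tubule. The 48 h and d14 groups came from Sox9IRES-CreERT2/+:R26RtdT/+ mice after ischemia-reperfusion injury of both kidneys, with tdTomato driven through Sox9, a transcription factor switched on in injured tubule cells. Tamoxifen was given at injury in the 48 h group and on days 10 and 12 in the d14 group, whose cells were collected on day 14. Cortex and outer medulla were digested in the cold, and tdTomato-positive cells were sorted before polyadenylated RNA was sequenced. The Cre allele, the injury and the tamoxifen schedule differ together between uninjured and injured groups and cannot be told apart. Time after injury and tamoxifen schedule also differ together between the 48 h and d14 groups and cannot be told apart. A difference between 48 h and d14 is therefore one between separately labelled cells and does not follow the same cells over time. In RNA from pooled sorted cells, fewer cells of a type and less RNA per cell cannot be told apart either.

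Fatty acid oxidation shortens acyl chains by repeated cycles of dehydrogenation, hydration, a further dehydrogenation and thiolytic cleavage. Mitochondria take up long-chain acyl groups through the carnitine shuttle and pass the electrons to the respiratory chain through the electron transfer flavoprotein, whereas peroxisomes shorten very long and branched chains with oxidases that make hydrogen peroxide. The proximal tubule relies on this pathway for most of its energy, and the nuclear receptor Ppara induces many of its genes.

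Library totals ranged from 8036054 counts in 48 h replicate 2 to 51631204 in uninjured replicate 1. Values are CPM, counts per 1000000 counts of a library, scaled with the trimmed mean of M-values (TMM), in the order replicate 1, 2 and 3, and a level of 3 counts corresponds to 0.06515 to 0.431 CPM depending on the library. Across genes, the lowest Pearson correlation of a replicate pair was 0.97 among uninjured, 0.899 among 48 h and 0.955 among d14 libraries. A check of the labels against markers found the summed level of 14 proximal tubule genes at 35480, 29200 and 28970 CPM without injury, at 17190, 7274 and 9050 after 48 h and at 3890, 6284 and 6679 on d14. Markers of the thick ascending limb summed to 281, 325.5 and 224 CPM without injury, to 903, 705 and 849.9 after 48 h and to 2681, 4948 and 5102 on d14, with every d14 library above the rest. None of 5 adipocyte markers, genes of another cell type that oxidizes fat, exceeded 6 counts in a library. The member genes together made up 1.07% to 1.36% of all counts in uninjured libraries, 0.696% to 1.18% at 48 h and 0.552% to 0.569% at d14.

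Against uninjured cells, 14 of the 41 fatty acid oxidation genes were called lower at 48 h and 33 at d14, and 27 genes were not called at 48 h. At 48 h none of the genes was called higher beside the 14 called lower by the edgeR quasi-likelihood test (adjusted p under 0.05), where 11.7% of all genes tested were called lower and 17.4% higher. The absence of higher calls at 48 h stands beside 3 genes that were higher at an unadjusted p under 0.05 and 3 that DESeq2 called higher, Hadha, Eci1 and Decr1. The 14 lower calls were 7 of 20 mitochondrial, 1 of 6 dual and 6 of 15 peroxisomal genes. The 48 h log2 fold change was below 0 in 23 of the 41 genes, with a median of -0.29, and over all genes tested 0.02. At d14, 33 genes were called lower and 1 higher, beside 20.7% and 25.1% of all genes tested. These 33 were 15 of 20 mitochondrial, 6 of 6 dual and 12 of 15 peroxisomal genes, with a median of -1.39 over the 41 genes and 0.06 over all genes tested. With only the d14 and uninjured libraries in the fit, 38 genes were called lower, beside 25.9% of all genes. In 38 of the 41 genes every d14 library lay below every uninjured library, against 28.9% of all genes tested, and at 48 h in 15 of the 41, against 20.8%. The reverse held for Hadha and Eci1 at 48 h, against 21.5%, and for Acadsb at d14, against 34.4%.

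Compared directly with 48 h cells, d14 cells had 32 of the 41 genes lower and 1 higher, beside 16.3% and 16.8% of all genes tested. The d14 libraries lay wholly below the 48 h libraries in 32 genes and above them in 1, where 20.6% and 26.7% of all genes did. With libraries scaled by their totals alone, the median of all genes moved to 0.63 in each d14 comparison. Then 24 members were lower and 2 higher against uninjured cells (9.13% and 47.1% of all genes), and 19 lower and 3 higher against 48 h (6.02% and 43.9%). By that scaling the calls of Abcd3, Acadl, Acadvl, Acsl1, Crat, Crot, Eci2, Etfdh and Pex11a against uninjured cells were lost, and so were those of Acaa1a, Acad10, Acadl, Acads, Acox3, Crat, Crot, Decr2, Etfa, Etfdh, Hacl1, Hsd17b4 and Phyh against 48 h. Without the filter on low counts, Abcd3, Acsl1, Crat, Eci2, Ehhadh, Etfdh and Pex11a missed the threshold at d14 against uninjured cells (edgeR, adjusted p = 0.0504 to 0.0784). The 3 comparisons share libraries, so their calls are not independent. The commonest course, in 18 genes, was no call at 48 h and a lower level at d14 against both other groups. Another 10 genes (Acaa1a, Acad10, Acad11, Acads, Acox3, Cat, Etfa, Phyh, Scp2 and Slc27a2) fell in steps, lower at 48 h than in uninjured cells and lower again at d14. Steps and courses here are differences between groups of separately labelled cells. With libraries scaled by their totals alone, the later step was no longer called in Acaa1a (0.18), Acad10 (-0.19), Acads (-0.23), Acox3 (-0.36), Etfa (-0.09) and Phyh (-0.06), while Acad11, Cat, Scp2 and Slc27a2 passed the test. The later step of Acad10 also missed the threshold without 48 h replicate 2 (-0.48) and without d14 replicate 1 (-0.59) or 3 (-0.78), and that of Phyh without d14 replicate 1 (-0.50, adjusted p = 0.0506). Acad12, Acat1 and Echs1 were lower in both injured groups with no call between 48 h and d14. Acsl1 and Amacr were called only at d14 against uninjured cells, and Decr2, Eci1, Hacl1 and Hsd17b4 only at d14 against 48 h. Cpt1a, Hadha and Hadhb passed the test in no comparison, and Acadsb alone was lower at 48 h and higher at d14.

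**Figure D1:**
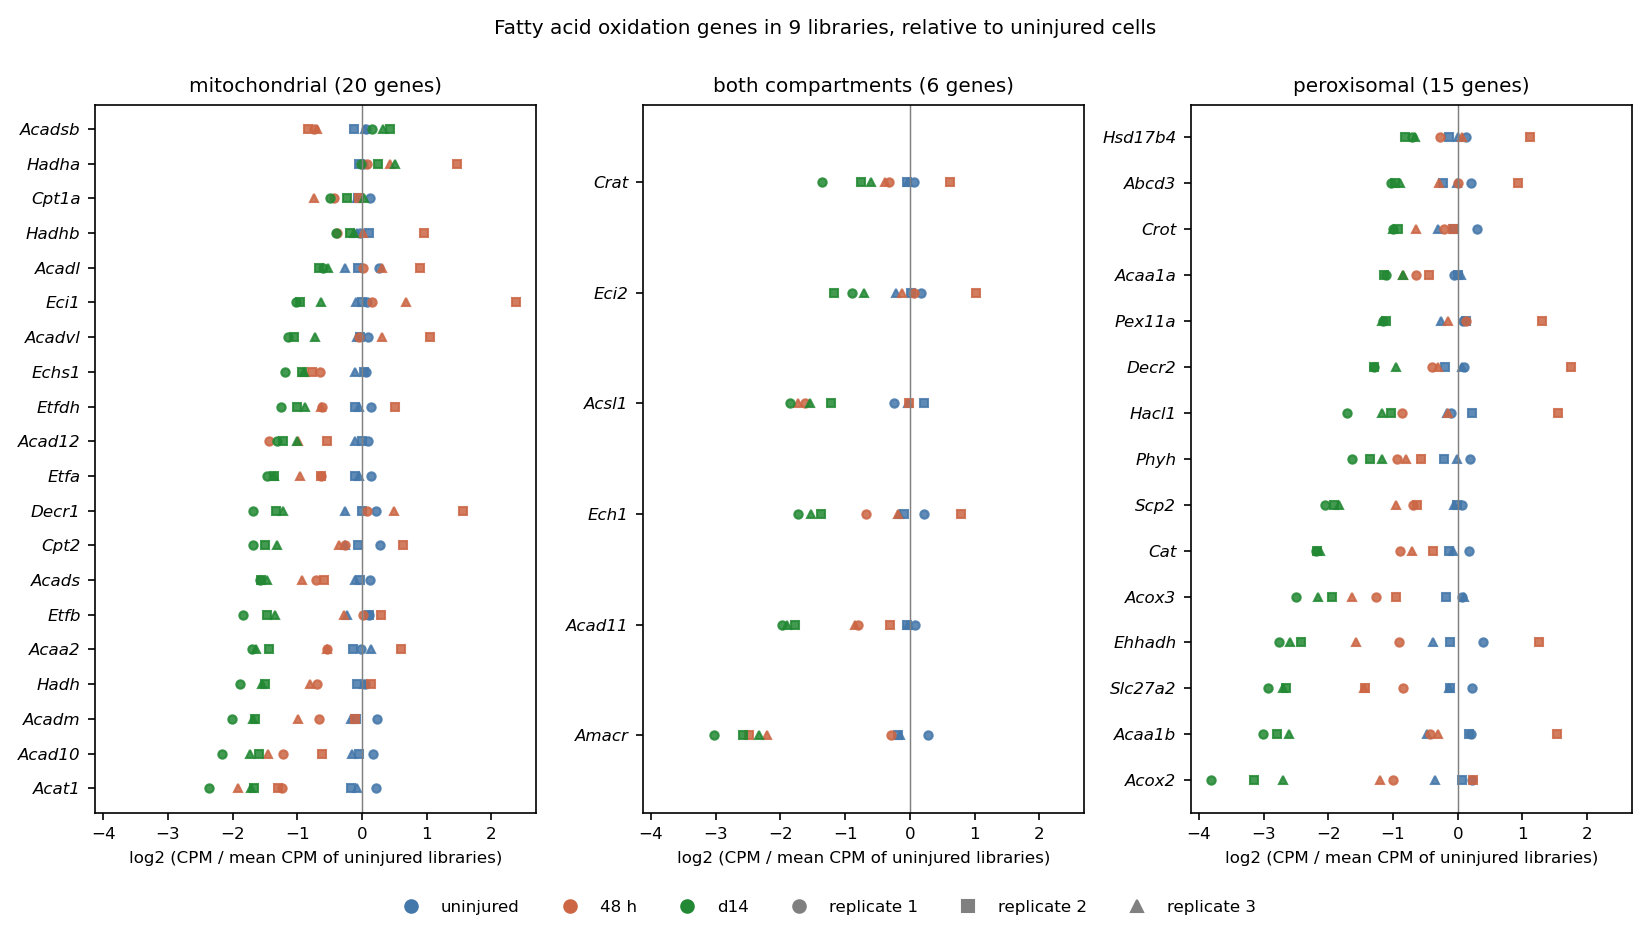
Log2 of the CPM of each of the 41 genes over its mean in uninjured libraries (x axis) for the 9 libraries, coloured by group and shaped by replicate, in 3 panels by compartment. The d14 points lie to the left for most genes, at 48 h replicate 2 (squares) lies to the right of replicates 1 and 3 in most rows, and at d14 Acadsb lies above 0 and Hadha and Cpt1a near it.

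Per length of annotated exons, the leading gene of the group in uninjured cells was Slc27a2, at 1427 ± 255 TPM. TPM are counts per length, scaled to the same sum in each library, given as mean and SD (n = 3). Next came Cat at 595 ± 85.2, Etfb at 406 ± 69.55, Phyh at 363 ± 57.45 and Scp2 at 300 ± 25.4 TPM. Acad12 was the lowest at 7.71 ± 0.88 TPM. TPM was used to order genes within a group and to form ratios within a library. Levels were compared between groups by CPM. The length was that of all annotated exons of a gene together, 8730 bases for Hadha and 1164 for Etfb. The order of genes therefore depends on how many exons are annotated for each. Slc27a2 kept the first place at 48 h and d14, while Ehhadh went from place 6 in uninjured cells and 5 at 48 h to 16 at d14, and Acaa1b from 9 and 4 to 19. In the other direction, Cpt1a went from place 19 in uninjured cells to 8 at d14, Acadsb from 40 to 29 and Hadha from 36 to 20. Such a move is relative to the other members and is not a change of level.

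The carnitine shuttle opens the mitochondrial pathway, and its outer and inner enzymes took different courses. Cpt1a makes acylcarnitines at the outer membrane and is the regulated entry step. Its level was 488, 427 and 424.5 CPM in uninjured libraries, 332.5, 434.5 and 268 after 48 h and 318, 382 and 456 at d14, with d14 replicate 3 inside the uninjured range and the others below it. No comparison called it, and the log2 fold change at d14 was -0.21 ± 0.18 (adjusted p = 0.38). Cpt2, which turns acylcarnitines back into acyl-CoA inside the mitochondrion, stood at 119.8, 94.6 and 81.98 CPM in uninjured libraries, 82.5, 153 and 77.7 after 48 h and 30.8, 34.99 and 39.6 at d14. Every d14 library was below every other library for Cpt2, and the log2 fold change against uninjured cells was -1.49 ± 0.26 (adjusted p = 0.000845) (edgeR).

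The acyl-CoA dehydrogenases, which start each mitochondrial cycle for chains of a given length, held 4 of the 7 mitochondrial calls at 48 h. Among the 7 mitochondrial dehydrogenases, these 4 were lower at 48 h, 6 were lower at d14 and 1 was higher at d14. The medium-chain enzyme Acadm went from 562, 446 and 423 CPM in uninjured libraries to 302, 443 and 239 after 48 h and 119, 152 and 149 at d14. At 48 h its replicate 2 lay inside the uninjured range and the others below it, and the fold change (-0.54 ± 0.21, adjusted p = 0.0776) was called lower without that replicate (-0.82) and by limma voom with sample weights (-0.66), and not otherwise. Acads, the short-chain enzyme, fell in steps, with 189, 170.5 and 162 CPM in uninjured libraries, 106.5, 116 and 91.8 after 48 h and 58.4, 58.7 and 62.7 at d14. The groups of Acads did not overlap anywhere, with log2 fold changes of -0.73 ± 0.12 at 48 h (adjusted p = 0.000983) and -1.54 ± 0.12 at d14 (adjusted p = 1.82e-06). Acadvl, which handles very long chains at the inner membrane, had 249.5, 229 and 223 CPM in uninjured libraries, 228, 486 and 289 after 48 h and 106, 113.5 and 142 at d14. At 48 h 1 library lay inside the uninjured range and the others above it, and the difference between them was not called, while d14 lay below both, by -0.96 ± 0.24 (adjusted p = 0.00755) against uninjured cells. With libraries scaled by their totals alone the d14 change of Acadvl was -0.40 (adjusted p = 0.154).

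Acadsb, a short and branched-chain dehydrogenase best known for isoleucine breakdown, ran against the rest. It stood at 72.05, 63.8 and 71.9 CPM in uninjured libraries, 41.3, 38.8 and 42.9 after 48 h and 77.3, 93.8 and 86.9 at d14. All 48 h libraries were lowest and all d14 libraries highest, with no overlap between any groups. The log2 fold change was -0.75 ± 0.11 (adjusted p = 0.000589) at 48 h, 0.31 ± 0.11 (adjusted p = 0.0359) at d14 and 1.07 ± 0.11 (adjusted p = 8.03e-05) between d14 and 48 h (edgeR). The d14 call against uninjured cells was lost without the filter on low counts, with mitochondrially encoded genes left out, with the replicate number as a block and with the 2 groups fitted alone, where the Acadsb fold change was 0.27, 0.25, 0.31 and 0.27. It was also lost without any 1 of the uninjured libraries and without d14 replicate 2 or 3, where it was 0.21 to 0.34. The remaining dehydrogenases were chosen for mention after their values were seen. Acad10 and Acad12 are neighbours on chr5 with a gap of 2087 bp and the same strand, and act on unusual acyl chains. At 48 h Acad10 stood at 35.6, 54.2 and 30.5 CPM and Acad12 at 12.3, 22.7 and 16.7 CPM, below uninjured values of 94.03, 80.9 and 74.98 for Acad10 and of 35.4, 33.3 and 30.7 for Acad12. They share about 17% of their 50-base stretches with other genes, mostly with each other, and expected counts divide such reads between them. Acadl, the long-chain enzyme, was 228, 421 and 279.5 CPM at 48 h beside 271, 217 and 187 in uninjured cells, and was called lower at d14 (-0.59 ± 0.21, adjusted p = 0.0384). Without any d14 library, or without uninjured replicate 1 or 2, the d14 change of Acadl was -0.67 to -0.44 and missed the threshold (adjusted p = 0.061 to 0.151). It missed it too with the replicate number as a block (-0.59, adjusted p = 0.0612), and with libraries scaled by their totals alone the change was -0.03 (adjusted p = 0.912).

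Hadha and Hadhb encode the subunits of the mitochondrial trifunctional protein, which carries out the last 3 steps of the cycle for long chains. They lie head to head on chr5, Hadha on the minus strand (chr5:30118304-30155162) and Hadhb on the plus strand (chr5:30155248-30184593) in GENCODE M21 on GRCm38, with start sites 86 bp apart. The 85 bases between the annotated starts, at chr5:30155163-30155247 in the same build, are shown because neither flanking gene passed the test in any comparison. They are written on the plus strand, with the capitals marking both copies of GGGCGG found on either strand, and contain no CCAAT and 69.4% G or C.
Hadha and Hadhb interval: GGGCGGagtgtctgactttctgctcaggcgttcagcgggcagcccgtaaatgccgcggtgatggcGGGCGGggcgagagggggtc
Hadha was measured at 133, 127 and 134 CPM in uninjured libraries, 139, 365 and 178 after 48 h and 130, 156 and 188 at d14. Hadhb, chosen for its partner, was at 123, 135 and 119.7 CPM without injury, at 95.8, 244 and 127 after 48 h and at 95.2, 111 and 116 on d14. For each subunit the highest library was 48 h replicate 2, and the d14 level of Hadha overlapped the uninjured level while that of Hadhb lay just below it. At d14 the log2 fold change was 0.26 ± 0.31 for Hadha and -0.23 ± 0.28 for Hadhb, neither called (adjusted p = 0.521 and 0.546, edgeR). With library totals alone Hadha was called higher at d14 (0.81, adjusted p = 0.0344), with the 2 groups alone Hadhb was called lower (-0.27, adjusted p = 0.0468), and without 48 h replicate 1 each was lower at d14 than at 48 h (-0.77 and -0.78). Per length, the levels of the subunits were close within each group, at 22.8 ± 0.97 and 28.9 ± 2.82 TPM in uninjured cells, 36.5 ± 18.95 and 33.1 ± 16.25 at 48 h and 49.9 ± 5.05 and 45.3 ± 5.6 at d14 (mean and SD, n = 3). These TPM carry no TMM scaling and serve to compare the subunits within a group, not the groups. Hadhb shares 18.1% of its 50-base stretches with the pseudogene Gm13910.

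The 4 soluble enzymes of the later steps were all lower at d14, unlike the trifunctional protein. Echs1, the short-chain enoyl-CoA hydratase, went from 161.5, 157 and 143 CPM in uninjured libraries to 97.8, 89.97 and 82.5 after 48 h and 67.5, 81.2 and 83.1 at d14. Both injured groups lay below every uninjured library, and they overlapped each other, with log2 fold changes of -0.77 ± 0.12 (adjusted p = 0.000792) at 48 h and -0.99 ± 0.12 (adjusted p = 4.72e-05) at d14. Acat1, the thiolase of ketone body and isoleucine metabolism, stood at 659, 504.5 and 540.4 CPM in uninjured libraries, 241, 231 and 150.3 after 48 h and 109.9, 179 and 174 at d14. Its change at 48 h, -1.46 ± 0.22 (adjusted p = 0.000839), was the lowest among the 41 genes, and its d14 and 48 h libraries overlapped. Hadh, the short-chain hydroxyacyl-CoA dehydrogenase, and Acaa2, the mitochondrial thiolase, were not called at 48 h. Hadh was at 276, 495.5 and 257 CPM then, beside 463, 424 and 457 in uninjured cells, and Acaa2 at 121, 269 and 122 CPM, beside 174, 160.4 and 196. They were lower at d14, by log2 fold changes of -1.63 ± 0.23 and -1.59 ± 0.28 (adjusted p = 0.000168 and 0.00109).

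Of the auxiliary enzymes that prepare unsaturated chains, the mitochondrial Eci1 and Decr1 had the highest 48 h log2 fold changes of the 41 genes, and neither was called by edgeR. Eci1, the mitochondrial enoyl-CoA isomerase, stood at 61.2, 58.4 and 54.7 CPM in uninjured libraries, 64.6, 303 and 92.8 after 48 h and 28.7, 29.97 and 37.5 at d14. Its 48 h libraries all lay above the uninjured ones and replicate 2 stood far apart, and the difference of 1.39 ± 0.52 (adjusted p = 0.0811) was not called. Without that replicate, or with the 2 groups alone, Eci1 was called lower at d14 against uninjured cells (-0.86, adjusted p = 0.000762, and -0.90, adjusted p = 8.89e-05). Decr1, the mitochondrial dienoyl-CoA reductase, was at 178, 153 and 127 CPM without injury, at 162, 452 and 215 after 48 h and at 47.8, 60.6 and 65.3 on d14, with d14 below both other groups (-2.25 ± 0.35, adjusted p = 0.00137 against 48 h). The electron transfer flavoprotein, which receives electrons from the dehydrogenases, was lower at d14 in all 3 of its genes. Etfa fell in steps from 292, 246.5 and 257 CPM in uninjured libraries to 171, 171 and 136.5 after 48 h and 96.1, 103 and 104 at d14, with no overlap between groups. Its log2 fold change was -0.73 ± 0.12 (adjusted p = 0.00128) at 48 h and -1.39 ± 0.12 (adjusted p = 5.19e-06) at d14 (edgeR). The partner subunit Etfb stood at 334, 334.5 and 264.5 CPM without injury, at 313, 379.7 and 257 after 48 h and at 87.4, 112 and 122 on d14, not called at 48 h and lower at d14 (-1.54 ± 0.18, adjusted p = 3.56e-05). Etfb shares 43.8% of its 50-base stretches with the overlapping gene Gm45233 on the same strand, so its counts are uncertain. Etfdh, the oxidoreductase that hands the electrons on to ubiquinone, was 112, 244 and 110.2 CPM at 48 h beside 190.1, 159 and 166 in uninjured cells and 72.2, 85.9 and 92.8 at d14. Its d14 call was lost without d14 replicate 1 (-0.94, adjusted p = 0.0518), and with libraries scaled by their totals alone the change was -0.48 (adjusted p = 0.132). Against 48 h the d14 call of Etfdh was lost with the replicate block (-0.83, adjusted p = 0.0543), by limma voom, with the 2 groups alone and without any 1 d14 library or uninjured replicate 3 (-0.97 to -0.69).

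All 6 enzymes placed in both compartments were lower at d14 than in uninjured cells, and 1 was lower at 48 h. That was Acad11, a dehydrogenase of long and hydroxylated chains, at 286, 263 and 266 CPM in uninjured libraries, 155, 219 and 150.2 after 48 h and 68.8, 79.7 and 72.8 at d14. No groups of Acad11 overlapped, and the log2 fold changes were -0.64 ± 0.15 (adjusted p = 0.00824) at 48 h and -1.88 ± 0.15 (adjusted p = 2.47e-06) at d14. Acsl1, which activates long-chain fatty acids to acyl-CoA, was 301, 415 and 349.6 CPM in uninjured libraries, 115, 354 and 107 after 48 h and 98.5, 153 and 122 at d14. At 48 h its replicate 2 sat inside the uninjured range while replicates 1 and 3 sat near the d14 level. The 48 h change of Acsl1 was -0.89 ± 0.44 (adjusted p = 0.167) with all libraries and -1.68, adjusted p = 0.000172, without replicate 2 (edgeR). With the replicate number as a block it was -1.07, adjusted p = 0.0266. Amacr, the racemase that readies branched-chain acids and bile acid precursors, showed the opposite odd library, at 277, 199.8 and 205 CPM in uninjured cells, 185, 40.7 and 49.1 after 48 h and 27.8, 37.9 and 45.1 at d14. Replicate 1 lay near the uninjured range and the others near d14, and without replicate 1 the 48 h change was -2.34, adjusted p = 4.33e-05, against -1.30 ± 0.55 (adjusted p = 0.118) with it and -1.69, adjusted p = 0.0381, by limma voom with sample weights. Crat, the carnitine acetyltransferase, Eci2, an isomerase, and Ech1, a dienoyl-CoA isomerase, were not called at 48 h. Crat was at 107, 205 and 102 CPM then, Eci2 at 74.6, 144 and 65.3 and Ech1 at 177, 492 and 249.7, in each case with replicate 2 above every uninjured library. At d14 their log2 fold changes were -0.87 ± 0.27, -0.91 ± 0.27 and -1.54 ± 0.32. The d14 calls of Acsl1, Crat and Eci2 each depended on single libraries, since without d14 replicate 1 the changes were -1.37, -0.67 and -0.92 with adjusted p of 0.0902, 0.0791 and 0.0581. Leaving out uninjured replicate 1 also ended the calls of Crat (-0.83) and Eci2 (-0.82), uninjured replicate 3 those of Acsl1 (-1.52) and Crat (-0.89), uninjured replicate 2 and d14 replicate 3 that of Acsl1 (-1.43 and -1.50), and d14 replicate 2 that of Eci2 (-0.80). With libraries scaled by their totals alone the calls of all 3 were lost, at -0.97 for Acsl1, -0.33 for Crat and -0.35 for Eci2 (adjusted p = 0.0879, 0.251 and 0.295).

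**Figure D2:**
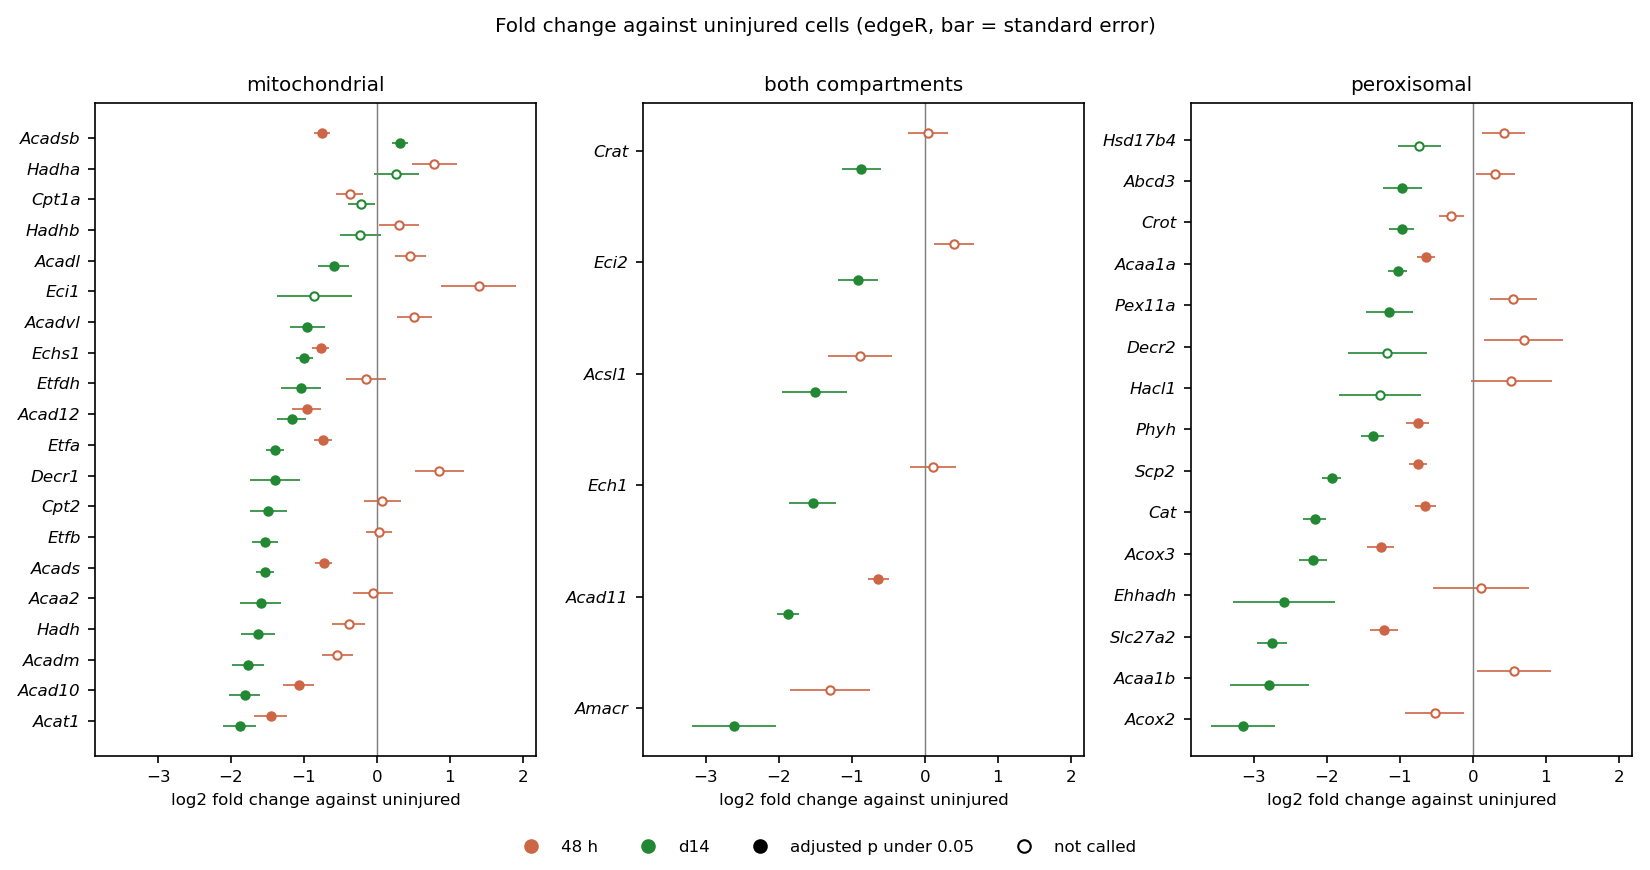
Log2 fold change against uninjured cells (x axis) at 48 h and d14 for the 41 genes in 3 panels by compartment, with the standard error as a bar and filled points for an adjusted p under 0.05. Filled d14 points extend to -3.15 for Acox2 and -1.88 for Acat1, and the open d14 points of Cpt1a, Hadha and Hadhb lie near 0. The open 48 h point of Hadha lies at 0.79.

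Of the genes classed under peroxisomal uptake and activation, Slc27a2 had the highest CPM in every library. Slc27a2 is a very long-chain acyl-CoA synthetase and fatty acid transporter at chr2:126552407-126588243 and also a proximal tubule marker. It was measured at 4119, 3264 and 3212 CPM in uninjured libraries, 1963, 1312 and 1289 after 48 h and 464, 562 and 545 at d14. The 3 groups did not overlap, and the log2 fold change was -1.22 ± 0.19 (adjusted p = 0.000983) at 48 h and -2.75 ± 0.20 (adjusted p = 1.4e-06) at d14 (edgeR). Abcd3, the transporter that brings branched and dicarboxylic acyl-CoA into the peroxisome, stood at 344, 257 and 298 CPM without injury, at 299.9, 570.3 and 246 after 48 h and at 146, 154 and 160.5 on d14. It was not called at 48 h and was lower at d14, by -0.97 ± 0.27 (adjusted p = 0.0135), and without d14 replicate 1 missed the threshold (-0.93, adjusted p = 0.0503). With libraries scaled by their totals alone the change of Abcd3 was -0.40 (adjusted p = 0.2).

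The acyl-CoA oxidases Acox3 and Acox2, which carry out the peroxide-forming step, were both lower at d14. Acox3, an oxidase of branched chains, went from 319, 271 and 327 CPM in uninjured libraries to 127, 157.5 and 98.5 after 48 h and 54.04, 79.4 and 68.5 at d14, in steps without overlap. The log2 fold changes of Acox3 were -1.26 ± 0.19 (adjusted p = 0.000597) and -2.19 ± 0.19 (adjusted p = 4.55e-06). Acox2, the oxidase of bile acid intermediates, was 107, 95.9 and 72.1 CPM in uninjured libraries, 45.9, 108 and 39.8 after 48 h and 6.51, 10.3 and 14.04 at d14. Its d14 libraries lay far below the rest, with a log2 fold change of -3.15 ± 0.44 (adjusted p = 0.000429), the lowest of the 41 genes at d14. At 48 h replicates 1 and 3 of Acox2 were below the uninjured range and replicate 2 just above it, and the call (-1.10, adjusted p = 0.0212) appeared only without replicate 2.

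The enzymes that complete the peroxisomal cycle divided into those that fell at 48 h in every replicate and those that were high in replicate 2. Ehhadh, the bifunctional enzyme at chr16:21761287-21787807 and a classical target of Ppara, had 633, 444 and 369 CPM in uninjured libraries, 256, 1147 and 162 after 48 h and 70.8, 90.2 and 80.1 at d14. At 48 h replicate 2 was the highest of all 9 libraries and the others lay below every uninjured one. The log2 fold change was 0.11 ± 0.66 (adjusted p = 0.921) with all libraries, -1.21, adjusted p = 0.00738, without replicate 2, and -2.58 ± 0.70 (adjusted p = 0.017) at d14 (edgeR). The d14 call of Ehhadh was lost without uninjured replicate 1 or any d14 library, with changes of -2.67 to -2.34 and adjusted p of 0.0535 to 0.0672. The thiolase Acaa1b also had a high replicate 2 at 48 h, with the others inside the uninjured range, at 295, 289 and 183.5 CPM in uninjured libraries, 190.2, 745 and 207 after 48 h and 31.8, 36.8 and 42.1 at d14. It fell by 2.79 ± 0.54 on the log2 scale at d14 (adjusted p = 0.00337). Its paralog Acaa1a fell in steps instead, from 143.5, 149 and 153 CPM to 95.2, 109 and 82.5 after 48 h and then to 68.7, 67.1 and 82.4, with log2 fold changes of -0.64 ± 0.13 (adjusted p = 0.00368) and -1.03 ± 0.13 (adjusted p = 6.15e-05) against uninjured cells. The later step of Acaa1a, -0.39 ± 0.13 (adjusted p = 0.0371) between d14 and 48 h, rests on groups that nearly touch, with the highest d14 library at 82.37 CPM and the lowest 48 h library at 82.47 CPM. It missed the threshold with the replicate number as a block (-0.39, adjusted p = 0.0693), by limma voom (-0.32), with the 2 groups alone (-0.435) and without 48 h replicate 1 or 2, d14 replicate 1 or 2, or uninjured replicate 1 or 3 (-0.39 to -0.29), and it turned to 0.18 with libraries scaled by their totals alone. The paralogs share sequence, 30.5% of the 50-base stretches of Acaa1b and 12.4% of those of Acaa1a, so part of their reads was divided by estimate. Scp2, a thiolase and sterol carrier, was 721, 684 and 663 CPM in uninjured libraries, 427, 446 and 357 after 48 h and 166, 182 and 193 at d14, and none of its groups overlapped. The changes of Scp2 were -0.75 ± 0.12 (adjusted p = 0.00115) and -1.93 ± 0.13 (adjusted p = 5.44e-07), and 29.7% of its 50-base stretches occur in the pseudogene Scp2-ps2. Hsd17b4, the other bifunctional enzyme, was 188, 492 and 239 CPM at 48 h, 248, 207 and 228 in uninjured cells and 139, 129 and 143.5 at d14, where the fold change missed the threshold by edgeR (-0.73 ± 0.29, adjusted p = 0.0661). Hsd17b4 was called lower at d14 by DESeq2 (-0.74, adjusted p = 0.0262), by limma voom (-0.745, adjusted p = 0.0183), with the 2 groups alone (-0.77, adjusted p = 0.000197) and without 48 h replicate 1 or 2 (-0.73 in each case).

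Crot, which exports shortened chains as carnitine esters, was 174, 136 and 114 CPM in uninjured libraries, 122, 134.5 and 90.2 after 48 h and 70.6, 74.8 and 70.6 at d14. It was not called at 48 h and fell at d14, by -0.97 ± 0.18 (adjusted p = 0.000882), with every d14 library below the rest. With libraries scaled by their totals alone the change of Crot was -0.41 (adjusted p = 0.07). Of the alpha-oxidation pair, Phyh, the phytanoyl-CoA hydroxylase, fell in steps (519.6, 393 and 449.8, then 238, 307 and 262, then 147, 178 and 202 CPM). Hacl1, the lyase of the next step, reached 31.8, 169 and 51.8 CPM at 48 h beside 53.6, 67.4 and 51.6 in uninjured cells and 17.6, 28.3 and 25.5 at d14, and shares 27.4% of its 50-base stretches with the overlapping Gm49387. Decr2, the peroxisomal dienoyl-CoA reductase, was 43.2, 192 and 46 CPM at 48 h beside 61.1, 49.9 and 59.98 in uninjured cells and 23.2, 23.2 and 29.6 at d14, again with replicate 2 far above the others. Pex11a, a membrane protein of peroxisome division and a Ppara target, was 53.6, 121 and 44.4 CPM at 48 h, 52.2, 53.9 and 41.1 in uninjured cells and 22.1, 22.8 and 21.7 at d14 (-1.14 ± 0.32, adjusted p = 0.0164). The d14 call of Pex11a was lost without uninjured replicate 1 (-1.10), d14 replicate 1 (-1.14) or d14 replicate 3 (-1.12), and with libraries scaled by their totals alone the change was -0.58 (adjusted p = 0.152). Without 48 h replicate 2, Hacl1 and Decr2 were called lower at d14 against uninjured cells (-1.27 and -1.17). They were also called by limma voom (-1.23 and -1.16, adjusted p = 0.0281 and 0.0294) and with the 2 groups alone (-1.31 and -1.21, adjusted p = 0.000124 and 2.54e-05), and Hacl1 with the replicate number as a block (-1.31, adjusted p = 0.0357) and without 48 h replicate 1 (-1.27). Their calls against 48 h were lost without any 1 uninjured or d14 library, at -1.94 to -1.62 for Hacl1 and -1.99 to -1.80 for Decr2, and that of Decr2 with the replicate block (-1.64, adjusted p = 0.0811). Limma voom, the 2 groups alone, no filter on low counts and scaling by library totals also ended both calls against 48 h (-1.93 to -1.22).

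Cat, at chr2:103453849-103485160, encodes catalase, which removes the hydrogen peroxide that the oxidases make. Its level fell in steps from 1160, 939 and 981 CPM in uninjured libraries to 551, 788 and 628 after 48 h and 225, 226 and 235 at d14. No groups overlapped, and the d14 libraries lay closely together. The log2 fold change was -0.65 ± 0.15 (adjusted p = 0.00808) at 48 h, -2.17 ± 0.16 (adjusted p = 1.09e-06) at d14 and -1.52 ± 0.15 (adjusted p = 6.46e-05) between them (edgeR).

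Set against each other, the compartments had similar reductions against uninjured cells. The median log2 fold change at 48 h was -0.26 over mitochondrial, -0.30 over dual and -0.29 over peroxisomal genes, and at d14 -1.28, -1.52 and -1.37. Peroxisomal minus mitochondrial medians therefore differed by -0.03 at 48 h and -0.09 at d14, and left-out libraries moved the first from -0.22 to 0.07. Between 48 h and d14 the compartments were further apart, with medians of -0.85, -1.28 and -1.52, and all 15 peroxisomal genes against 13 of 20 mitochondrial genes were called lower. That gap of -0.67 shrank to -0.17 without 48 h replicate 2, when 14 peroxisomal and 12 mitochondrial genes were called lower (16.1% of all genes). With libraries scaled by their totals alone, 8 of each were called lower (6.02%). DESeq2 called 15 peroxisomal and 13 mitochondrial genes lower (19.4%), but limma voom and the fit without the filter on low counts each called 11 and 12 (15.8% and 9.65%). The calls were 12 and 12 with the 2 groups alone (15%), and 9 and 10 without d14 replicate 1 (11.2%). Uncalled peroxisomal genes at d14 against uninjured cells (Hsd17b4, Hacl1 and Decr2) all had d14 libraries below every uninjured one. So did Hadhb and Eci1 among the uncalled mitochondrial genes, and 28.9% of all genes tested. Mitochondrial genes included the 3 with no call in any comparison and the 1 with a higher level at d14.

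In summed CPM the peroxisomal share fell in steps, and Slc27a2 made up much of the peroxisomal sum. Peroxisomal over mitochondrial CPM was 1.85, 1.73 and 1.74 in uninjured libraries, between 1.25 and 1.47 at 48 h and 0.918, 0.863 and 0.822 at d14, with no overlap between groups. Slc27a2 alone made up 44.6% to 46% of peroxisomal CPM in uninjured libraries, 19.3% to 42.4% at 48 h and 28.1% to 30.1% at d14. Without it the ratio was 0.996, 0.956 and 0.964 in uninjured cells, 0.844, 1.01 and 0.834 after 48 h and 0.66, 0.603 and 0.588 on d14. The d14 ratio thus stayed below both other groups without Slc27a2, while 48 h and uninjured libraries overlapped. Per length the ratio without Slc27a2 was 0.945 to 1 in uninjured libraries and 0.648 to 0.696 at d14. Summed mitochondrial CPM was 4850, 4221 and 4139 without injury, 3163, 5413 and 3065 after 48 h and 1799, 2160 and 2328 on d14. Summed peroxisomal CPM without Slc27a2 was 4831, 4036 and 3991 without injury, 2670, 5485 and 2556 after 48 h and 1188, 1302 and 1369 on d14.

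**Figure D3:**
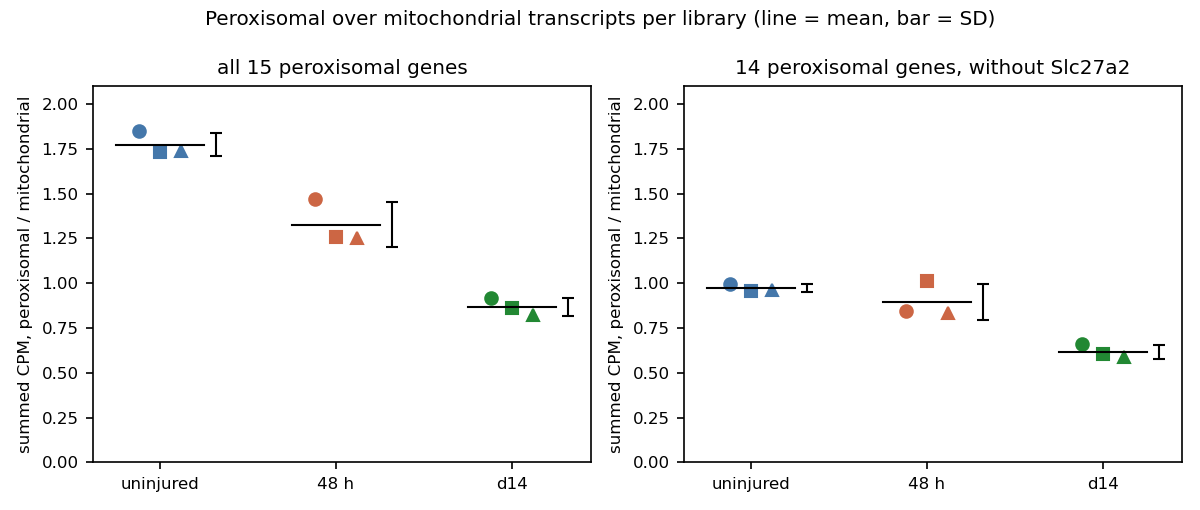
Summed CPM of peroxisomal over mitochondrial genes (y axis, from 0) in each library by group, with all 15 peroxisomal genes on the left and without Slc27a2 on the right, where lines are means and bars SD (n = 3). Uninjured libraries sit at 1.73 to 1.85 and d14 libraries at 0.822 to 0.918 on the left, and at 0.956 to 0.996 and 0.588 to 0.66 on the right.

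The 48 h libraries disagreed about this pathway more than the group means show. Replicate 2 had the highest of the 48 h values for 36 of the 41 genes, which held for 32.5% of the 15461 genes tested that had counts at 48 h, the background used here. It lay above every uninjured library for 22 of the genes, where 37.9% of all genes did so, and below every uninjured library for 15, where 41.9% did. Replicates 1 and 3 lay below every uninjured library for 29 and 30 of the genes, beside 36.3% and 36.7% of all genes, and both did so for 26, beside 26.4%. The ratio of replicate 2 to the mean of replicates 1 and 3 had a median of 1.86 over the 41 genes and 0.932 over all genes, and exceeded 2 in 17 of the 41 genes, beside 6.86% of all genes. It was 5.49 for Ehhadh, 4.31 for Decr2, 4.04 for Hacl1, 3.85 for Eci1, 3.74 for Acaa1b and 3.18 for Acsl1. Genes that were equal or lower in replicate 2 were Echs1 at 0.998, Acadsb at 0.922, Slc27a2 at 0.807 and Amacr at 0.347. The spread appeared in each compartment, with replicate 2 highest for 17 of 20 mitochondrial, 5 of 6 dual and 14 of 15 peroxisomal genes.

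That library was the shallowest and was low in proximal tubule markers, where its 7274 CPM was the least of the 48 h group. Its cell cycle markers summed to 6.18 CPM, against 184 and 53.8 in replicates 1 and 3, and its endothelial markers to 43.1 CPM, against 439.6 and 85.6. Neutrophil markers summed to 113, 211 and 342 CPM over the 3 libraries, against 2.801, 8.003 and 5.28 in uninjured cells. Macrophage markers summed to 145, 83.9 and 305.7 CPM over the 3 libraries, against 26.7, 26.8 and 22.8 in uninjured cells. The part of depth or of other cell types in the spread was not tested. Without replicate 2, 22 of the 41 genes were called lower at 48 h and 0 higher by edgeR (1 by unadjusted p, and 17.2% of all genes), 12 mitochondrial, 2 dual and 8 peroxisomal, where 10.5% of all genes tested were called lower. The 14 genes called with all libraries were among them, and Cpt1a, Acadm, Hadh, Acaa2, Etfdh, Acsl1, Acox2 and Ehhadh were added. Without replicate 1, 15 were called lower, and Acadvl, Acadl, Hadha, Eci1 and Decr1, all mitochondrial, were called higher, beside 12.1% and 16% of all genes.

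**Figure D4:**
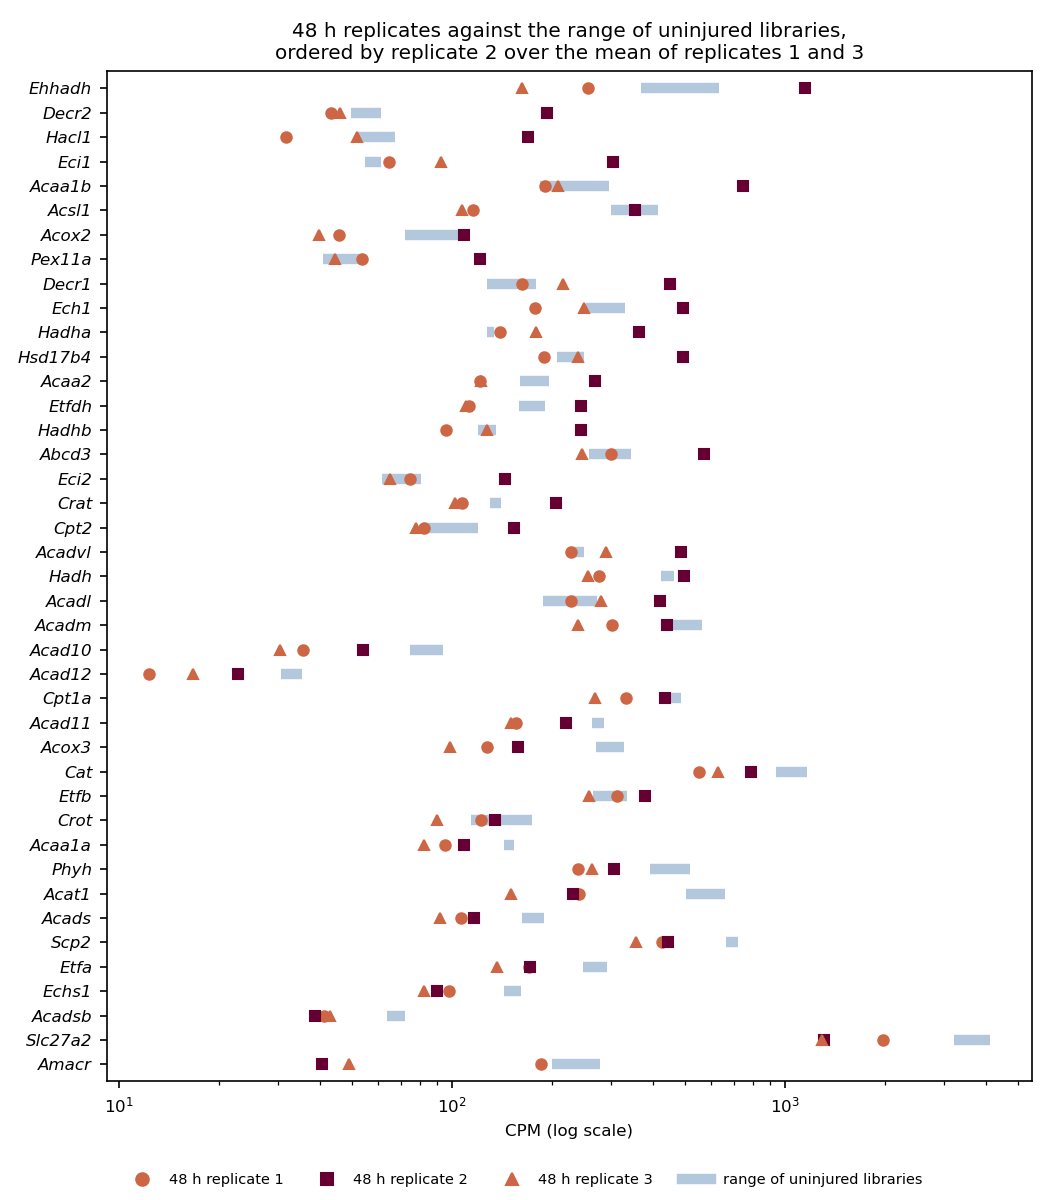
CPM on a log axis (x) of each of the 41 genes (rows) in 48 h replicates 1, 2 and 3, over a bar for the range of the 3 uninjured libraries, ordered by the ratio of replicate 2 to the mean of the others. Replicate 2 lies right of the bar for 22 genes, Ehhadh among them, and left of it for 15, including Cat, Scp2 and Slc27a2.

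Ppara, the receptor that binds fatty acids and drives many of these genes, had an order of libraries like that of Ehhadh. It was measured at 54.8, 56.2 and 62.4 CPM in uninjured libraries, 30.6, 85.7 and 27.9 after 48 h and 11.1, 11.04 and 12.9 at d14. As for Ehhadh, 48 h replicate 2 was the highest library and the others lay below the uninjured range, and at d14 the log2 fold change was -2.30 ± 0.39, adjusted p = 0.00118 (edgeR). Ppargc1a, a coactivator of mitochondrial genes, went the other way, with 45.8, 46.8 and 57.97 CPM in uninjured libraries, 43.1, 45.7 and 28.8 after 48 h and 57.8, 75.2 and 73.3 at d14. It was higher at d14 than at 48 h (0.82 ± 0.18, adjusted p = 0.00608) and not called against uninjured cells (0.45 ± 0.18, adjusted p = 0.0569). Hnf4a, a nuclear receptor of the proximal tubule, fell from 959, 1045 and 1031 CPM to 727, 618 and 577 after 48 h and then to 270.2, 253 and 262 on d14. Rxra, the partner of Ppara, fell from 189.7, 184.5 and 200 CPM to 148, 106 and 118 after 48 h and then to 67.9, 80.5 and 83.8 on d14. Unlike Ppara, Hnf4a, Rxra and the 14 members called lower at 48 h had every 48 h library below every uninjured one. A link between Ppara and the members was not tested. Of the 17 regulators tested, 5 were lower and 0 higher at 48 h, and 8 were lower and 1 higher at d14, against uninjured cells, where 11.7% and 17.4% of all genes tested were lower and higher at 48 h and 20.7% and 25.1% at d14. Beside the 0 higher regulators at 48 h by edgeR, 1 was higher at an unadjusted p under 0.05 and 1 by DESeq2.

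**Figure D5:**
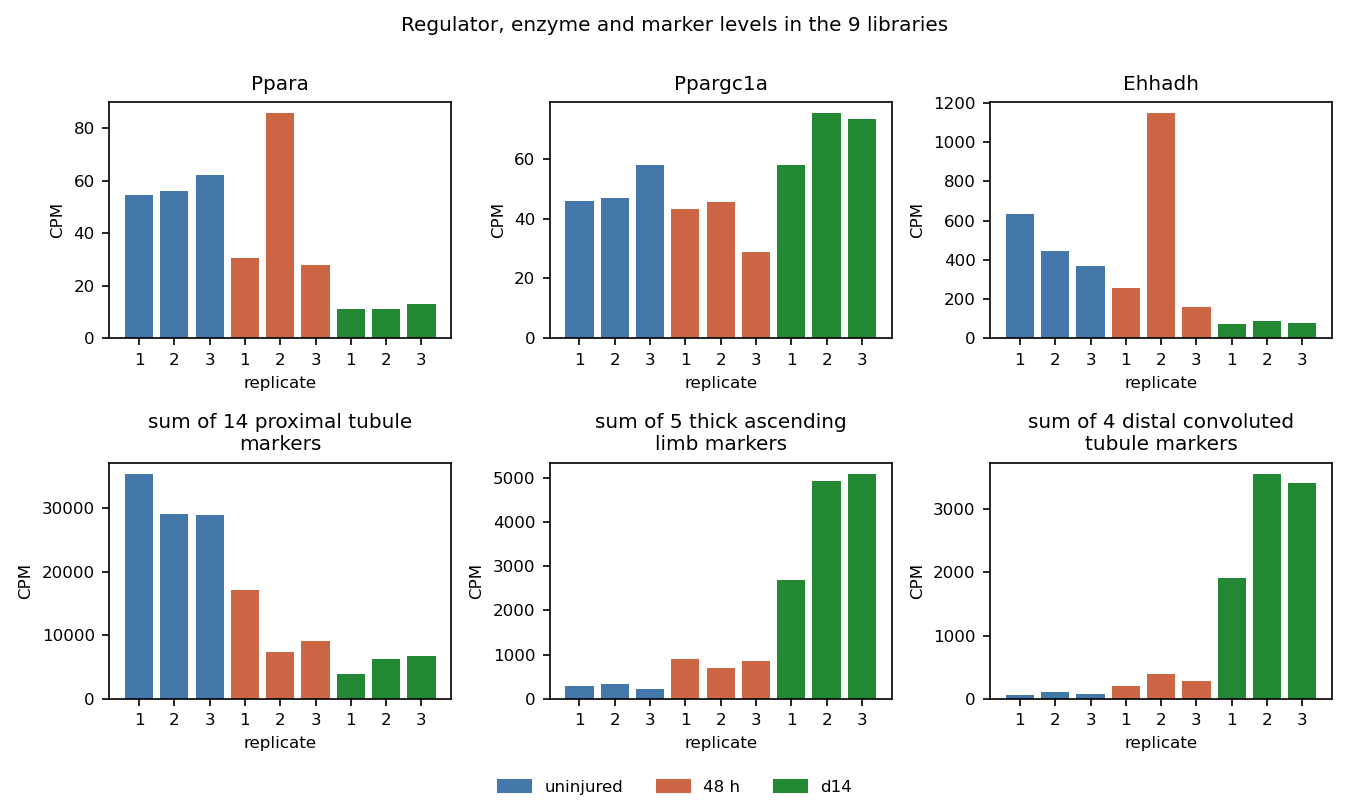
CPM (y axes, from 0) in the 9 libraries of Ppara, Ppargc1a and Ehhadh above and of summed proximal tubule, thick ascending limb and distal convoluted tubule markers below, coloured by group. Ppara and Ehhadh are highest in 48 h replicate 2, whose proximal tubule sum of 7274 is the lowest at 48 h, and the loop and distal sums are highest at d14.

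Ppara with Rxra binds a direct repeat of AGGTCA with a spacer of 1 base. RefSeq promoter windows on GRCm38.p6, from 250 bases before to 50 after a gene start, were found for 35 of the 41 genes and searched on both strands. The single AGGTCA occurred in 8 of the 35 windows (22.9%) and in 18.1% of the windows of 27025 genes, so the share lay near the background. The full repeat, which holds it, was in 0 of the 35 windows and in 0.0481% of all. Of the 8 genes with an AGGTCA, 5 were lower at 48 h and 7 at d14, beside 14 and 33 of all 41 genes. Stretches of up to 60 bases around it are shown for 6 of them, to set genes that fell in steps (Cat and Scp2) beside genes that fell late (Acadm and Acadvl), early without a further fall (Echs1) or without a call (Cpt1a). They are written 5′ to 3′ in the direction of transcription, with AGGTCA or its reverse complement TGACCT in capitals. The stretch of Acadm ends where its window does, and 5 bases of that of Echs1 lie in an annotated exon.
Cat (chr2:103485325-103485384): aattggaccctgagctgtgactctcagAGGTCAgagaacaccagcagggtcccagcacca
Scp2 (chr4:108118624-108118683): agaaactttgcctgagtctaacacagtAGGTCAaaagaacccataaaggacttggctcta
Acadm (chr3:153944860-153944893): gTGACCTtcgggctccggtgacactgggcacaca
Acadvl (chr11:70015483-70015542): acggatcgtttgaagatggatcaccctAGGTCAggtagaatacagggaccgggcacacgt
Echs1 (chr7:140116472-140116531): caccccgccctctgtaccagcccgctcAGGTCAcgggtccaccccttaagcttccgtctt
Cpt1a (chr19:3323180-3323239): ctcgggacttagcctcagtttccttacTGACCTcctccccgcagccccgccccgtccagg
Relative to the RefSeq start, AGGTCA lies at -204 to -199 in Cat, -109 to -104 in Scp2, -249 to -244 in Acadm, -87 to -82 in Acadvl, -83 to -78 in Echs1 and -94 to -89 in Cpt1a. The RefSeq start of Scp2 lies 26451 bases inside the GENCODE gene and that of Cpt1a 967 bases inside it, so these stretches are at internal starts, while the other 4 starts lie within 55 bases of the gene's annotated start. AGGTCA occurs beside genes of several courses, including Cpt1a, which was not called. The palindrome bound by Nrf1, a factor of mitochondrial genes, was in 3 of the 35 windows (8.57%, Acad10, Acad12 and Etfdh) and in 1.07% of all windows. These 3 genes were lower at d14, as were 33 of all 41. The RefSeq start of Etfdh lies 733 bases inside its GENCODE gene, and the 64 bases around its match all lie in annotated exons. Slc27a2, among the 8 genes with an AGGTCA, starts 617 bases inside, and the 60 bases around its match are likewise all in exons.

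Other lists held genes of fatty acid entry, further enzymes of both organelles, and peroxins with fission factors, not all of them of fat metabolism. Genes of fatty acid entry were called in both directions, while in the other lists all genes called at d14 by edgeR were lower. Over all genes tested, 11.7% were lower and 17.4% higher at 48 h, and 20.7% lower and 25.1% higher at d14, which is the background for each list here. Among 22 further genes of fatty acid entry, 2 were lower and 6 higher at 48 h, and 7 were lower and 6 higher at d14, against uninjured cells. Acsl5, an acyl-CoA synthetase, rose while its relative Acsl1 was lower at d14, with 25.5, 19.7 and 21.7 CPM in uninjured libraries, 78.7, 83.5 and 75.5 after 48 h and 139, 114 and 169 at d14. The log2 fold change of Acsl5 was 1.83 ± 0.16 at 48 h and 2.66 ± 0.16 at d14 (adjusted p = 1.34e-05 and 2.81e-07). Slc22a5, the carnitine transporter, fell at d14 from 236, 216 and 219 to 44.9, 70.9 and 61.2 CPM, and was 212, 188 and 136 at 48 h. Among 18 other mitochondrial enzymes 11 were lower and 2 higher at 48 h, and 13 lower and 0 higher at d14 (1 higher by unadjusted p and 1 by DESeq2), among them Mmut, the mutase of propionate breakdown, at 254, 230.2 and 274 CPM without injury, at 93.6, 78.2 and 75.1 after 48 h and at 73.9, 85.2 and 93.5 on d14. Among 24 other peroxisomal enzymes 9 were lower and 0 higher at 48 h, and 20 lower and 0 higher at d14. Higher by unadjusted edgeR p or by DESeq2 were 1 and 1 of these at 48 h and 0 and 0 at d14. Pipox, which oxidizes pipecolic acid, stood at 386, 359 and 356.5 CPM without injury, at 145.5, 158 and 171 after 48 h and at 76.4, 97.2 and 84.9 on d14. The last list held 18 genes, the peroxins, which build the organelle, and the fission factors Fis1, Mff and Dnm1l. Of these, 5 were lower and 1 higher at 48 h and 14 lower and 0 higher at d14 (1 by unadjusted p and 0 by DESeq2). The import receptor Pex5 went from 94.4, 86.2 and 92.4 CPM to 51.3, 57.6 and 50.1 after 48 h and then to 43.4, 43.98 and 43.1 on d14. The d14 median over these 18 genes was -0.67, against -1.37 over the 15 peroxisomal oxidation genes.

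Markers of some other cell types were higher at d14, and those of others were not. Over all genes tested, 11.7% were lower at 48 h, and 20.7% were lower and 25.1% higher at d14. Among 15 proximal tubule markers, of which Slc27a2 is also a member and Hnf4a a listed regulator, 11 were lower at 48 h and 14 at d14, with medians of -1.36 and -2.37. Thick ascending limb markers were higher in 4 of 5 at d14 and distal convoluted tubule markers in 4 of 4, and the latter summed to 1913, 3566 and 3417 CPM at d14 against 64.2, 111 and 66.1 in uninjured libraries. Within d14, replicate 1 had the lowest limb, distal and proximal sums, and also the lowest member sum, at 3822, 4515 and 4711 CPM over the 3 libraries. Without d14 replicate 1, 25 members were called lower against uninjured cells and 22 against 48 h, beside 16% and 11.2% of all genes. Principal cell markers were higher in 4 of 5 at d14, intercalated cell markers in 5 of 6 and macrophage markers in 5 of 7. Macrophage markers summed to 57.5 to 124 CPM at d14 and to 83.9 to 305.7 CPM at 48 h, against 22.8 to 26.8 in uninjured libraries. Fibroblast and pericyte markers were higher in 3 of 6 and neutrophil markers in 1 of 5, and podocyte markers were higher in 1 and lower in 1 of 5. Endothelial markers were higher in 0 of 6, and all 6 lay below every uninjured library at d14 without a call, against 28.9% of all genes. The mitochondrially encoded share of counts moved with the groups as well, at 25.1% to 29.2% in uninjured libraries, 32.7% to 39.2% at 48 h and 15.2% to 25.15% at d14. With mitochondrially encoded genes left out before scaling, 14 members were called lower at 48 h and 33 at d14, beside 13.3% and 23% of all genes. The part of cell composition or RNA quality in the lower levels was not tested.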

How the data were processed

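RNA sequencing of tdTomato-sorted mouse kidney cells was analysed in 9 libraries, 3 in each of 3 groups. The deposited table holds expected counts per gene, estimated by the authors. Per the submitters' processing notes, RSEM 1.2.28 and STAR 2.6.1 were used, beside bcl2fastq 2.20, R 3.6.3 and DESeq2 1.26.0, and mm10 and GRCh38 are listed as builds. For the annotation release and strand setting, the sources used here give nothing. Reads shared by similar genes are divided by estimate in RSEM, so genes with shared sequence are less certain. The 92 spike-in sequences were at 0 and stayed out.

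Expected counts were rounded and fitted with edgeR 4.0.16 (quasi-likelihood test, robust, TMM scaling) in R 4.3.3, with all 9 libraries in 1 fit. Genes needed about 10 counts in enough libraries and 15 in all, and p-values were adjusted by Benjamini-Hochberg over 15519 genes, with calls at an adjusted p under 0.05. Standard errors were derived from the F statistic. Alternatives used library totals without TMM, DESeq2 1.42.0, limma 3.58.1 (voom with sample weights), no filter, mitochondrially encoded genes left out, a replicate block, the 2 groups alone and each library left out. The model was tested on simulated data.

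Library totals ranged from 8036054 to 51631204 counts. Of 55385 identifiers, 55144 matched GENCODE M21 ignoring the version, which gave positions and exon lengths for TPM. Members, classes and lists were chosen with earlier results of these data known. Genes named by rule were 10 members fixed by name (Cpt1a, Cpt2, Acadm, Hadha, Echs1, Acsl1, Crot, Ehhadh, Acaa1b and Cat) and, per comparison and compartment, up to 4 called members with the smallest p, or the 2 with the highest mean CPM where none was called. Of each other pathway list, up to 3 called genes with the smallest p per comparison could be named, and Ppara and Ppargc1a always. An item that the rule also takes is not reported here. Other members named were chosen after their values were seen.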

Additional observations from a re-analysis of the deposited data

Results flagged for a closer look

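Acadsb was the member whose injured groups moved in opposite directions against uninjured cells, lower at 48 h and higher at d14, and the direct test of d14 against 48 h gave a log2 fold change of 1.07 ± 0.11 (edgeR, adjusted p = 8.03e-05), with all d14 libraries above all 48 h libraries.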

How the results depend on the processing

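The shallowest library was 48 h replicate 2, at 8036054 counts, and the part of depth in these results was not tested. Of 123 results (41 genes in 3 comparisons), 99 kept their direction and 56 kept direction and call under all 16 alternatives planned. Leaving out single libraries gave 14 to 22 genes called lower and 0 to 5 higher at 48 h against uninjured cells. At d14 it gave 25 (without d14 replicate 1) to 37 (without 48 h replicate 2) lower and 0 to 1 higher. Against 48 h, 22 (without d14 replicate 1) to 33 were lower and 1 to 1 higher at d14. Over all genes, 7.1% to 12.1% were lower and 12.3% to 17.2% higher at 48 h against uninjured cells in those fits. At d14 16% to 21.6% were lower and 19.9% to 26.9% higher. For d14 against 48 h, 11.2% to 16.1% were lower and 11% to 15.3% higher. The peroxisomal minus mitochondrial median ranged from -0.217 to 0.0735, from -0.184 to -0.0611 and from -0.671 to -0.166 (without 48 h replicate 2). DESeq2 called 3 genes higher at 48 h, beside 20.8% of all genes. With voom the compartment difference was -0.166 at 48 h and -0.498 between d14 and 48 h, and with Slc27a2 left out it was 0.17 at 48 h.

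Scaling by library totals alone moved the median of all genes to 0.626 at d14 against uninjured cells and 0.628 against 48 h. It left 24 and 19 genes lower, beside 9.13% and 6.02% of all genes. Called higher were 2 (Acadsb and Hadha) and 3 (Acadsb, Cpt1a at 0.722 and Echs1 at 0.344), beside 47.1% and 43.9%. The same scaling turned Cpt1a to 0.336 at d14 against uninjured cells, and Hadha to 0.036, Acat1 to 0.128 and Acaa1a to 0.182 against 48 h. Called higher at d14 against uninjured cells were 0 genes without the filter on low counts, with mitochondrially encoded genes left out, with the replicate block and with the 2 groups alone, by edgeR, where 0, 1, 1 and 1 had an unadjusted p under 0.05 and DESeq2 called 1.

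At 48 h, voom turned Cpt2 to -0.114, Etfb to -0.0289, Crat to -0.12, Ech1 to -0.0625 and Ehhadh to -0.568, and leaving out mitochondrially encoded genes turned Etfb to -0.0015. Without single libraries, Cpt2 ranged from -0.304 to 0.243, Etfb from -0.125 to 0.151, Ehhadh from -1.21 to 0.533, Crat from -0.354 to 0.215, Eci2 from -0.0298 to 0.605, Ech1 from -0.409 to 0.38 and Acaa1b from -0.364 to 0.886, each lowest without 48 h replicate 2. Acsl1 between d14 and 48 h ranged from -0.903 to 0.165. The cause of these changes was not tested.

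With the replicate number as a block, 15, 33 and 29 genes were lower and 0, 0 and 1 higher in the 3 comparisons. Over all genes, 9.85%, 19.4% and 13.7% were lower and 14.7%, 23.2% and 14.7% higher. By the block, Crat turned to -0.0208 and Ehhadh to -0.283 at 48 h. Deviations of same-numbered libraries correlated at -0.127 to 0.019, so the numbers were not taken as pairing. Chosen after seeing the data, leaving out the 8 genes with 10% or more shared 50-base stretches left 10 of 33 lower at 48 h, beside 11.7% of all genes.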
